A study of Drosophila melanogaster with 50 samples.

Results

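The CheA genes of Drosophila melanogaster were followed across adult Oregon R flies kept in 3 ground facilities that alter gravity. The 8 genes named were CheA75a, CheA7a, CheA87a, CheA84a, CheA29a, CheA46a, CheA56a and CheA86a, and each was read on the brightest probe set whose only gene symbol was that of the gene. Of these, 6 stood on such a probe set, among 11982 genes in all, and each of the 6 had 1 probe set. CheA56a and CheA86a stood on none and were not analysed here. The family was picked because members were lower at 2g in 5 d flies of the centrifuge and at 24C outside the magnet, so values from those arrays are given below as a description with no test, and no threshold was set for the choice.

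CheA and CheB are families of small secreted proteins that are related to the lipid-binding GM2 activator protein. Members of both families are known from taste hairs, where the proteins are thought to meet waxy, non-volatile pheromones in the fluid around the receptor neurons. CheA29a is known from pheromone-sensing hairs of the male foreleg, and CheB42a acts in the male response to female pheromone together with the channel subunit ppk25. For the other CheA genes no more specific role is given here. The genes are spread over the genome, with CheA7a on X, CheA29a on 2L, CheA46a and CheA56a on 2R, CheA75a on 3L and CheA84a, CheA86a and CheA87a on 3R in the RefSeq annotation, and no 2 of the 8 were neighbouring protein-coding genes.

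The series held 50 arrays of Oregon R, a wild-type strain, for which the labels name no transgene or mutation, sorted by facility, gravity level, sex, age and temperature. The random positioning machine (RPM, 14C, 5 d), which keeps turning the flies in changing directions, gave 4 arrays labelled males at 0g beside 3 at 1g outside, as well as 3 labelled females at 0g beside 3 at 1g outside. The magnet (females, 5 d) gave 0g*, 1g* and 2g* positions inside the field at 14C (n = 3 each), and flies outside the field at 24C (n = 3) and 14C (n = 2), where 1g* is the position that has the field at normal weight; runs of 80 h gave 0g* and 1g* at 14C (n = 2 each) and outside 24C (n = 3). The large diameter centrifuge (LDC, females, 22C) gave 2g (n = 4), a rotational control called 1g-rot (n = 2) and 1g outside (n = 2), each at 20 d and at 5 d. All were controls or treated flies of 1 strain, the replicates are called biological in the titles, and the number of flies per array is not given in the sources used here.

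Facts of the whole series touch the results in a few places. Levels are log2 intensities, and background was taken as the 95th percentile of the 50 probe sets for plant genes on the arrays of a group (3.92 to 4.41), below which a group mean was called at background. The 20 accessory gland markers, which are male transcripts, had mean levels of 3.96 to 7.35 on RPM arrays labelled males and 11.09 to 11.56 on those labelled females, opposite to the labels, so the words "labelled males" and "labelled females" are used throughout for that facility. On the magnet and centrifuge arrays, which are all labelled females, the same markers lay at 3.92 to 4.25 apart from magnet 1g* replicate 1 at 8.41 and 80 h 1g* replicate 1 at 7.89. Transcripts of both sexes also stood on RPM labelled males 0g replicate 1, on labelled females 0g replicates 2 and 3 and on labelled females 1g replicate 3. The temperature label of outside 24C replicate 1 reads 14C, and the array was grouped by its title.

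CheA75a, CheA7a and CheA87a were above background in 18 of 18 groups and CheA84a in 17 of 18, with outside 24C as the exception. CheA29a was above background in 2 of 18 groups, the RPM labelled females at 0g and at 1g, and CheA46a in 0 of 18. Single arrays ran over 6.21 to 9.59 for CheA75a, 5.27 to 9.03 for CheA7a, 4.23 to 7.96 for CheA87a, 4.10 to 5.91 for CheA84a, 3.75 to 4.51 for CheA29a and 3.46 to 4.49 for CheA46a. The 4 genes above background therefore carry the results, and the other 2 are given for completeness.

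**Figure D1:**
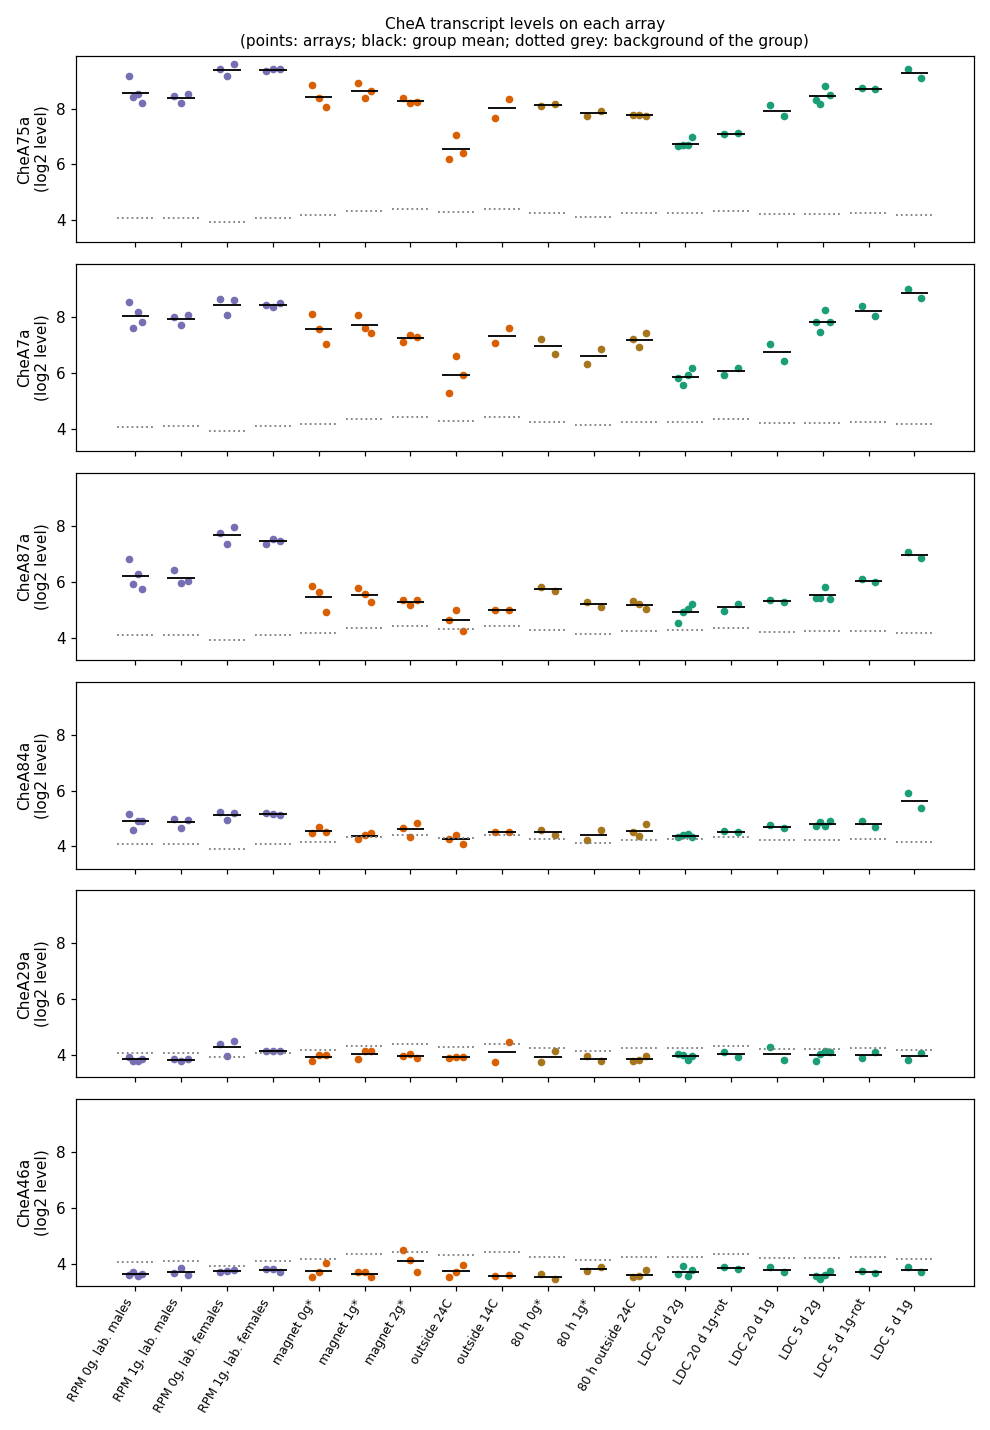
Log2 level of 6 CheA transcripts (one panel each) on every array of 18 groups. Points are arrays coloured by facility, black bars are group means and dotted grey bars the background of each group. CheA75a, CheA7a and CheA87a lie low in outside 24C and in the LDC 20 d groups and high in RPM labelled females and LDC 5 d 1g, while CheA29a and CheA46a stay near background.

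The order of the groups by mean level is given for the detected genes as a description, and it was not the same for all. From the highest down, magnet 1g* had rank 5 for CheA75a and rank 17 for CheA84a. Outside 24C and LDC 5 d 1g were among the groups that chose the family, so nothing is read from their places. CheA75a had its highest group means in RPM labelled females, at 9.40 ± 0.21 at 0g and 9.39 ± 0.04 at 1g (SD, n = 3 each), followed by LDC 5 d 1g at 9.27 ± 0.23 (SD, n = 2). These 3 overlapped in turn, and the next group, LDC 5 d 1g-rot at 8.71 ± 0.02 (SD, n = 2), lay below LDC 5 d 1g without overlap. The lowest were LDC 20 d 1g-rot at 7.11 ± 0.01 (SD, n = 2), LDC 20 d 2g at 6.75 ± 0.15 (SD, n = 4) and outside 24C at 6.56 ± 0.43 (SD, n = 3), and the last 2 of these overlapped. Of the 17 steps between neighbours in the order, 13 overlapped for CheA75a, 15 for CheA7a, 14 for CheA87a and 16 for CheA84a. Neighbours in a sorted order are the groups with the closest means, so these counts do not test whether groups differ.

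CheA7a was highest in LDC 5 d 1g at 8.86 ± 0.24 (SD, n = 2) and lowest in LDC 20 d 2g at 5.87 ± 0.25 (SD, n = 4). Its lowest 3 groups, LDC 20 d 1g-rot, outside 24C and LDC 20 d 2g, overlapped in turn. CheA87a was highest in RPM labelled females, at 7.69 ± 0.30 at 0g and 7.46 ± 0.09 at 1g (SD, n = 3 each), and lowest in outside 24C at 4.62 ± 0.39 (SD, n = 3). CheA84a was highest in LDC 5 d 1g at 5.64 ± 0.38 (SD, n = 2), which did not overlap with the next group, and its other 17 groups overlapped in turn between 4.25 and 5.15.

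The group means of the detected genes went together as a description. Over the 18 groups, Pearson's r was 0.95 between CheA75a and CheA7a, 0.86 between CheA75a and CheA87a, 0.85 between CheA84a and CheA87a, 0.82 between CheA7a and CheA87a, 0.81 between CheA7a and CheA84a and 0.77 between CheA75a and CheA84a. The points share facility, age and temperature, and part of the arrays chose the members, so no test is given. With CheA29a the r values were 0.28 to 0.48 for the 4 detected genes.

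In the centrifuge at 20 d, an age whose arrays were not used to choose the family, CheA75a fell at 2g against 1g outside. Its levels were 6.65, 6.69, 6.68 and 6.97 at 2g, against 8.12 and 7.72 at 1g outside. The groups did not overlap, and all 4 arrays at 2g lay below both arrays outside. The log2 difference was −1.17 (SE 0.16, 95% interval −1.52 to −0.82), which is 44.4% of the level at 1g outside, with a Benjamini-Hochberg adjusted p of 0.003 from limma. It was 1 of 6 members called lower, where 0.346% of all probe sets were called lower in this comparison. At both ages the centrifuge arrays carry the letters V, X, Y and Z at 2g, and Q and R at 1g-rot and 1g outside. Gravity level and array letter thus cannot be told apart in comparisons with 2g.

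The other detected genes also lay below 1g outside at 20 d without overlap, but none of them passed the adjusted test. CheA7a had 5.81, 5.57, 5.92 and 6.17 at 2g, against 7.05 and 6.43 at 1g outside, a log2 difference of −0.87 (SE 0.22, limma adjusted p 0.084). Without 1g outside replicate 1 the difference of CheA7a was −0.56 (limma adjusted p 0.87), and over all settings with 1 array left out it was −1.18 to −0.56 with limma adjusted p values of 0.054 to 0.87. CheA87a had 4.52, 4.91, 5.02 and 5.19 at 2g, against 5.36 and 5.26 at 1g outside, a log2 difference of −0.40 (SE 0.16, limma adjusted p 0.36). CheA84a had 4.35, 4.41, 4.44 and 4.34 at 2g, against 4.78 and 4.64 at 1g outside, a log2 difference of −0.33 (SE 0.13, limma adjusted p 0.34). With CheA75a this made 4 of 6 members below 1g outside with no overlap, beside 8.63% of all probe sets. The median difference of the 6 was −0.36, beside 0.00 over all probe sets.

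The call for CheA75a at 20 d rested on the group of 2 arrays outside. Without 1g outside replicate 1 the log2 difference was −0.97 with a limma adjusted p of 0.12, and without replicate 2 it was −1.37 with 0.018. Leaving out each array at 2g in turn gave limma adjusted p values between 0.0023 and 0.012. In bulk samples, fewer cells of a type and less RNA per cell cannot be told apart.

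The rotational control at 20 d lay between 2g and 1g outside by group mean for the 4 detected genes. CheA75a had 7.10 and 7.11 at 1g-rot, between the arrays at 2g and those at 1g outside and overlapping with neither group. For 1g-rot against 1g outside the log2 difference of CheA75a was −0.82 (SE 0.19, 95% interval −1.22 to −0.41), with an unadjusted p of 0.00061 and a limma adjusted p of 0.95, in a comparison where 0.00533% of all probe sets were called lower. CheA7a had 5.94 and 6.18 at 1g-rot, a log2 difference of −0.68 (SE 0.25, limma adjusted p 1) from 1g outside. The 4 detected genes all lay below 1g outside without overlap at 1g-rot, beside 12.6% of all probe sets. The 2g and 1g-rot comparisons share the 2 arrays outside.

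At 2g against 1g-rot at 20 d, 0 of 6 members were called lower, where 0.682% of all probe sets were. CheA75a differed by −0.36 (SE 0.16, 95% interval −0.71 to −0.01, limma adjusted p 0.29), and its groups did not overlap. CheA7a differed by −0.19 with a 95% interval of −0.66 to 0.27, CheA87a by −0.17 (−0.52 to 0.17) and CheA84a by −0.13 (−0.41 to 0.14). CheA75a and CheA84a were the 2 members below 1g-rot without overlap, beside 12.3% of all probe sets. At an unadjusted p under 0.05 there was 1 member, CheA75a, beside 16.2% of all probe sets.

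Other transcripts moved with part of this result. The mean level of 11 photoreceptor markers was 7.15 to 7.62 at 2g at 20 d, 8.13 to 8.49 at 1g-rot and 8.14 to 8.21 at 1g outside. The 16 antenna and head sense organ markers, mostly odorant binding proteins, had mean levels of 7.31 to 7.58, 7.50 to 7.66 and 7.47 to 7.50 in the same 3 groups. The 7 fat body markers had 7.23 to 7.36 at 2g and 7.36 to 7.51 at 1g-rot, against 7.46 to 7.53 at 1g outside, so that 2g lay below 1g outside without overlap. The 16 gut markers lay at 10.93 to 11.12 at 2g, above 10.77 to 10.89 at 1g outside, with 10.68 to 11.17 at 1g-rot. The 3' minus 5' difference of eIF-4a, a sign of RNA integrity, was 0.99 to 1.26 at 2g, 0.62 to 0.67 at 1g-rot and 0.79 to 0.81 at 1g outside, and the part of these in the result was not tested.

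**Figure D2:**
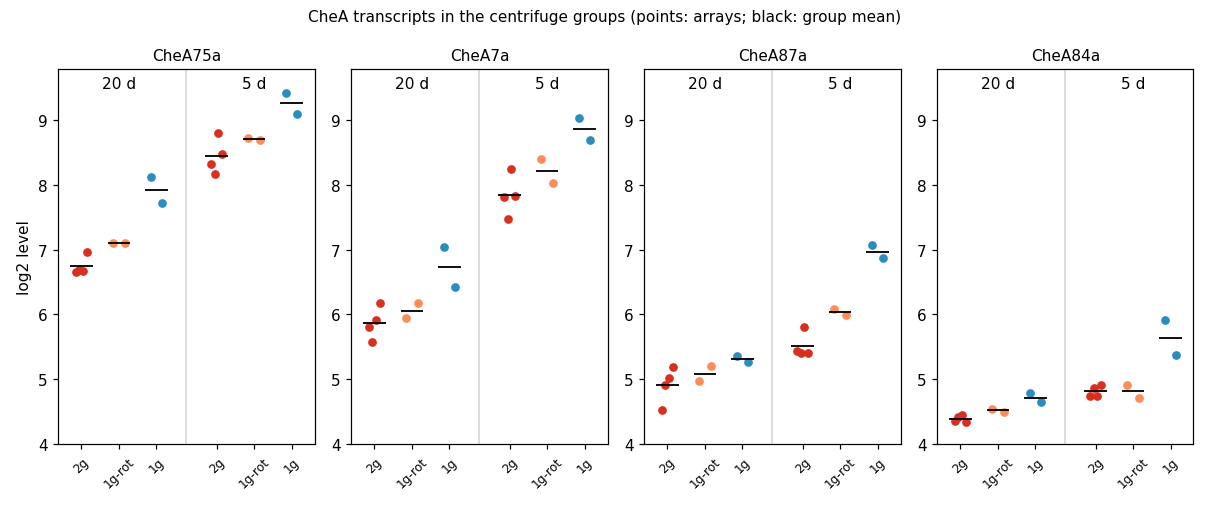
Log2 levels of CheA75a, CheA7a, CheA87a and CheA84a in the centrifuge groups, with 2g, 1g-rot and 1g outside at 20 d on the left of each panel and at 5 d on the right. Points are arrays and black bars group means. At each age 2g and 1g-rot lie below 1g outside, and the 20 d groups lie below the 5 d groups of the same treatment.

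The 5 d groups were among those that chose the family. By group mean CheA75a, CheA7a and CheA87a stood in the order 2g, 1g-rot and 1g outside, from low to high, while CheA84a was level at 2g and 1g-rot. CheA87a, with the widest gap, had 5.43, 5.41, 5.81 and 5.40 at 2g, 6.09 and 5.99 at 1g-rot, and 7.07 and 6.87 at 1g outside. These 3 groups did not overlap, and the log2 difference was −1.46 (SE 0.16) for 2g against 1g outside, which is 36.3% of the level outside. For 2g against 1g-rot it was −0.53 (SE 0.16), and for 1g-rot against 1g outside −0.93 (SE 0.19).

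CheA7a had 7.82, 7.47, 8.25 and 7.83 at 2g at 5 d, 8.41 and 8.03 at 1g-rot, and 9.03 and 8.69 at 1g outside. Its arrays at 2g overlapped with 1g-rot and lay below 1g outside, by −1.02 (SE 0.22). CheA75a had 8.32, 8.17, 8.80 and 8.48 at 2g, 8.73 and 8.70 at 1g-rot, and 9.43 and 9.10 at 1g outside. It too overlapped between 2g and 1g-rot, and differed by −0.82 (SE 0.16) between 2g and 1g outside.

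CheA84a had 4.74, 4.87, 4.74 and 4.91 at 2g at 5 d, 4.91 and 4.71 at 1g-rot, and 5.91 and 5.37 at 1g outside. The 2g and 1g-rot groups lay on top of each other, with a difference of 0.00 (SE 0.13), and both lay below 1g outside, 2g by −0.82 (SE 0.13) and 1g-rot by −0.83 (SE 0.15). CheA29a and CheA46a were at background in all 3 groups. At 2g against 1g-rot only CheA87a lay lower without overlap, beside 7.42% of all probe sets. The 4 detected genes lay below 1g outside without overlap both at 2g, beside 6.98% of all probe sets, and at 1g-rot, beside 16.8%. The median difference of the 6 members from 1g outside was −0.82 at 2g and −0.59 at 1g-rot, beside 0.00 and 0.02 over all probe sets, and nothing is read from these counts since the family was chosen on them.

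The 5 d differences from 1g outside also used a group of 2 arrays. Without 1g outside replicate 1 the difference of CheA84a at 2g was −0.56, and without replicate 2 it was −1.10. The photoreceptor markers had mean levels of 8.59 to 8.81 at 2g, 8.43 to 8.45 at 1g-rot and 8.61 to 8.82 at 1g outside, so the 2g and 1g outside ranges overlapped. The antenna and head markers lay at 7.72 to 8.03, 7.82 to 7.92 and 7.71 to 7.99. The 13 gustatory organ markers, most of them taste receptors near background, lay at 4.30 to 4.47 at 2g, 4.48 to 4.54 at 1g-rot and 4.58 at 1g outside, with 3, 5 and 4 of 13 above background. The 13 muscle markers lay at 10.88 to 11.16, 10.85 to 10.86 and 11.17 to 11.22 in these groups, and the part of both lists in the result was not tested.

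The 20 d flies had lower CheA levels than the 5 d flies of the same treatment. CheA7a differed by −1.98 (SE 0.18) at 2g, −2.16 (SE 0.25) at 1g-rot and −2.12 (SE 0.25) at 1g outside. CheA75a differed by −1.69 (SE 0.13), −1.61 (SE 0.19) and −1.35 (SE 0.19) in the same treatments. For both genes every array at 20 d lay below every array at 5 d of its treatment.

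CheA87a differed between the ages by −0.60 (SE 0.13) at 2g, −0.96 (SE 0.19) at 1g-rot and −1.66 (SE 0.19) at 1g outside. CheA84a differed by −0.43 (SE 0.10), −0.29 (SE 0.15) and −0.93 (SE 0.15). For CheA87a and CheA84a, at levels of 4.91 and 4.38 at 2g at 20 d, the arrays lay close to the background, which limits how far down they can be measured. The 4 detected genes were lower at 20 d without overlap in each of the 3 treatments, beside 9.9% of all probe sets at 2g, 23.8% at 1g-rot and 28.9% at 1g outside. Muscle markers also moved with age, at 9.37 to 9.94 on the 20 d arrays and 10.85 to 11.22 on the 5 d arrays. The antenna and head markers were lower at 20 d without overlap in each treatment, at 7.31 to 7.58 against 7.72 to 8.03 at 2g, 7.50 to 7.66 against 7.82 to 7.92 at 1g-rot and 7.47 to 7.50 against 7.71 to 7.99 at 1g outside. The photoreceptor markers were lower without overlap at 2g, at 7.15 to 7.62 at 20 d against 8.59 to 8.81 at 5 d, and at 1g outside, at 8.14 to 8.21 against 8.61 to 8.82. The part of these lists in the CheA values was not tested. The 5 d arrays took part in the choice of the family, so these differences have no test either, and whether they differ between treatments was not tested.

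Outside the magnet, CheA75a and CheA7a lay lower at 24C. CheA75a had 6.21, 7.04 and 6.42 at 24C, against 7.68 and 8.35 at 14C, a log2 difference of −1.46 (SE 0.28). CheA7a had 5.27, 6.61 and 5.94 at 24C, against 7.07 and 7.62 at 14C, a log2 difference of −1.40 (SE 0.36). Neither gene overlapped between the temperatures.

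The other members were nearer to background in these flies. CheA87a had 4.64, 5.00 and 4.23 at 24C, against 4.98 and 4.98 at 14C, a difference of −0.36 (SE 0.27) with overlap, which was −0.55 without 24C replicate 2 and −0.16 without 24C replicate 3. CheA84a had 4.27, 4.39 and 4.10 at 24C, where it was at background, against 4.50 and 4.50 at 14C, where background was 4.41. Its measured difference was −0.25 (SE 0.15, 95% interval −0.58 to 0.08). The 14C mean lay 0.20 above the background of the 24C group on the log2 scale. Together 3 of 6 members, CheA75a, CheA7a and CheA84a, lay lower without overlap, beside 8.95% of all probe sets. CheA29a and CheA46a were at background at both temperatures.

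Several marker lists also differed between these groups on the 5 arrays. Of all probe sets, 10.8% lay higher and 8.95% lower at 24C without overlap. The photoreceptor markers had mean levels of 5.85 to 6.02 at 24C, against 7.89 to 8.32 at 14C, and the antenna and head markers 6.17 to 6.48, against 6.83 to 7.01. The 7 fat body markers had 7.66 to 8.36 at 24C, against 8.78 to 8.81 at 14C. The neuronal markers, at 5.76 to 6.37 against 6.29 to 6.39, and the gustatory organ markers, at 4.28 to 4.33 against 4.24 to 4.61, overlapped. On the 80 h arrays outside at 24C the photoreceptor markers had 7.76 to 7.97. The 3' minus 5' difference of GAPDH was 1.90 to 2.05 at 24C, against 1.66 to 1.87 at 14C, and that of eIF-4a 1.25 to 1.31, against 1.00 to 1.22. Their part in the CheA values was not tested. With the 24C array whose temperature label reads 14C placed in the 14C group, the difference was −0.68 for CheA75a and −0.38 for CheA7a.

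**Figure D3:**
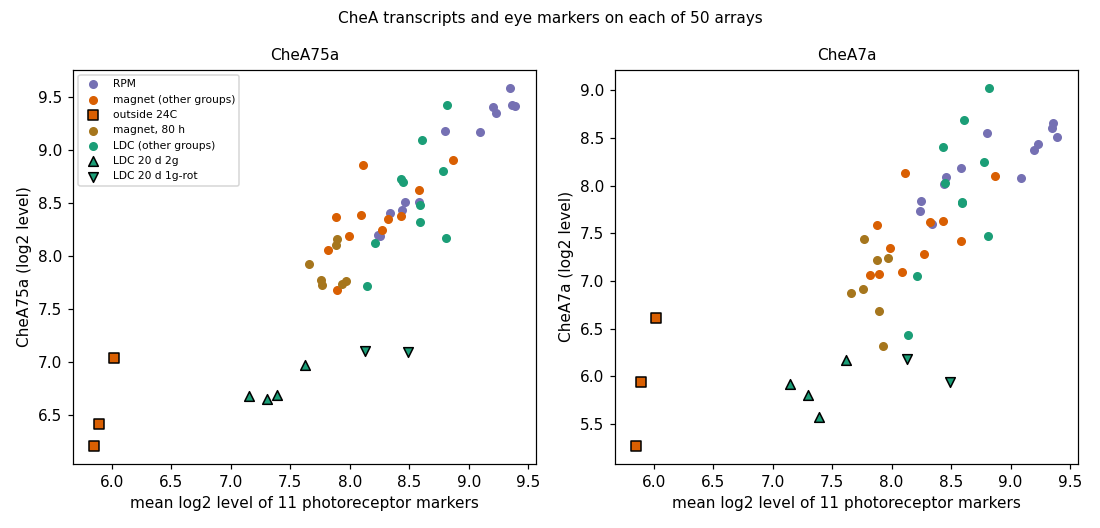
Log2 level of CheA75a (left) and CheA7a (right) against the mean log2 level of 11 photoreceptor markers on each of 50 arrays, coloured by facility. Squares are outside 24C, upward triangles LDC 20 d 2g and downward triangles LDC 20 d 1g-rot. The squares lie at photoreceptor levels of 5.85 to 6.02, apart from all other arrays. The 80 h arrays outside at 24C lie at 7.76 to 7.97. The LDC 20 d arrays lie at 7.15 to 7.62 at 2g and 8.13 to 8.49 at 1g-rot.

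The 80 h runs offered other flies at 24C outside the magnet. CheA75a had 8.11 and 8.16 at 0g* and 7.74 and 7.93 at 1g*, against 7.77, 7.78 and 7.73 outside at 24C. CheA87a had 5.81 and 5.67 at 0g* and 5.29 and 5.11 at 1g*, against 5.31, 5.19 and 5.01 outside at 24C. For both genes 0g* lay above both other groups without overlap, while 1g* overlapped with outside.

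None of the 80 h differences passed the adjusted test. For 0g* against outside 24C the log2 difference was 0.57 (SE 0.14, limma adjusted p 0.13) for CheA87a and 0.37 (SE 0.12, 0.27) for CheA75a, where 0.41% of all probe sets were called higher. For 0g* against 1g* it was 0.54 (SE 0.15, limma adjusted p 0.66) for CheA87a and 0.30 (SE 0.13, 0.70) for CheA75a, where 0% were called higher. These were 2 of 6 members above the other group without overlap in each comparison, beside 18.9% and 18.8% of all probe sets. CheA46a, at background, was the 1 member lower at 0g* than at 1g* without overlap, beside 13.4%. The 2 comparisons share the 0g* arrays.

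CheA7a ran the other way between the 1g* and outside groups of the 80 h runs. It had 7.22 and 6.69 at 0g* and 6.32 and 6.88 at 1g*, against 7.24, 6.92 and 7.44 outside at 24C. At 1g* its arrays lay below all 3 arrays outside, by −0.60 (SE 0.23, limma adjusted p 0.28), where 0.549% of all probe sets were called lower, and it was the 1 member lower without overlap, beside 14.5%. Field and temperature differ together between the inside and outside groups of these runs and cannot be told apart. At an unadjusted p under 0.05, 1 member stood in 0g* against 1g*, 2 in 0g* against outside and 1 in 1g* against outside, and 0 passed after adjustment. They were CheA87a, beside 6.92% of all probe sets, CheA87a and CheA75a, beside 11.1%, and CheA7a, beside 14.2%.

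Other measures also differed among the 80 h groups. The 3' minus 5' difference of eIF-4a was 2.43 to 2.58 at 0g* and 2.69 to 3.34 at 1g*, against 2.61 to 2.92 outside at 24C. All 80 h arrays lay above every other array of the series in this measure, where the highest was 1.88, at magnet 2g*. The gut markers had mean levels of 10.55 to 10.76 at 0g* and 10.56 at 1g*, against 10.96 to 11.20 outside, and the muscle markers 9.40 to 9.61 and 9.32 to 9.65, against 9.04 to 9.27. The antenna and head markers lay at 6.50 to 6.61 at 0g* and 6.35 to 6.40 at 1g*, against 6.51 to 6.59 outside, so that 1g* was below outside without overlap. One of the 1g* arrays, replicate 1, carries transcripts of both sexes, and the part of these in the CheA values was not tested.

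Inside the magnet at 14C the position made no difference that passed the test. CheA75a had 8.86, 8.37 and 8.06 at 0g*, 8.91, 8.38 and 8.62 at 1g*, and 8.39, 8.19 and 8.25 at 2g*. CheA7a had 8.13, 7.59 and 7.06 at 0g*, 8.10, 7.63 and 7.42 at 1g*, and 7.10, 7.35 and 7.28 at 2g*. CheA87a had 5.86, 5.64 and 4.90 at 0g*, 5.78, 5.57 and 5.27 at 1g*, and 5.35, 5.18 and 5.35 at 2g*. The 0g* and 1g* arrays overlapped for each of these 3 genes, and CheA7a at 2g* lay below all 1g* arrays, the 1 member to do so, beside 9.27% of all probe sets. CheA84a, at 4.49, 4.69 and 4.51 at 0g*, lay above its 1g* arrays at 4.27, 4.41 and 4.46, the 1 member to do so, beside 11.3%.

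Of 6 members, 0 were called by limma in each of the 3 comparisons of positions, where 0.0213% of all probe sets were called for 0g* against 1g*, 0% for 2g* against 1g* and 0% for 0g* against 2g*. CheA7a differed by −0.47 at 2g* against 1g* with a 95% interval of −1.17 to 0.23 and CheA75a by −0.36 (−0.90 to 0.18), and the 4 detected genes differed by −0.21 to 0.18 at 0g* against 1g*, with intervals within −0.82 and 0.58. At an unadjusted p under 0.05 the members counted 0 for 0g* against 1g*, where 23% of all probe sets stood, 1 for 2g* against 1g*, beside 14.3%, and 0 for 0g* against 2g*, beside 3.73%. The 1 member was CheA46a, at background in both groups and 0.46 above 1g* at 2g* (unadjusted limma p 0.03). Magnet 1g* replicate 1, which carries transcripts of both sexes, was the highest 1g* array for CheA75a, CheA7a and CheA87a. Magnet 0g* replicate 1, with accessory gland markers at 4.08, was likewise the highest 0g* array for these genes, at 8.86, 8.13 and 5.86. At 2g* replicate 1 was the highest for CheA75a, at 8.39, and the lowest for CheA7a, at 7.10. The part of sex in these values was not tested.

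Against outside 14C, whose arrays took part in the choice, the median difference of the 6 members was 0.21 at 0g*, 0.22 at 1g* and 0.18 at 2g*, beside −0.01, 0.00 and −0.01 over all probe sets. These 3 values share the 2 outside arrays. Without outside 14C replicate 1 they were 0.07, 0.07 and 0.02, and without replicate 2 they were 0.34, 0.43 and 0.26. CheA87a, at 4.98 on both outside arrays, lay below all arrays at 1g* and 2g* and within the range at 0g*. All CheA75a arrays at 1g* lay above both arrays outside, with 8.38 as the lowest at 1g* and 8.35 as the highest outside. At 1g* 2 members lay above outside 14C without overlap, beside 16.4% of all probe sets, and 1, CheA84a, below, beside 12.2%. At 2g* 2 lay above, CheA87a and, at background, CheA46a, beside 8.26%.

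In the RPM, 0g against 1g outside gave no call in either label group. In labelled males CheA75a had 9.18, 8.41, 8.51 and 8.19 at 0g, against 8.44, 8.20 and 8.51 at 1g. In labelled females it had 9.43, 9.17 and 9.59 at 0g, against 9.35, 9.41 and 9.42 at 1g. The groups overlapped in both, and the array with transcripts of both sexes among labelled males, replicate 1 at 0g, was the highest of its group.

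The log2 differences of the 4 detected genes at 0g against 1g were 0.04 to 0.19 in labelled males, with 95% intervals within −0.43 and 0.60, and −0.03 to 0.23 in labelled females, with intervals within −0.46 and 0.75. The 2 groups of arrays overlapped for all 6 members in both comparisons, while 2.79% of all probe sets lay higher and 4.13% lower without overlap in labelled males, and 5.83% and 6.63% in labelled females. By limma 0 of 6 members were called in each, where 0.00533% of all probe sets were called in labelled males and 0% in labelled females. At an unadjusted p under 0.05 the members also counted 0 in each, beside 5.74% of all probe sets in labelled males and 6.49% in labelled females. The interaction of 0g and label gave 0 of 6 members, with 0% of all probe sets called.

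Between the 2 labels of the RPM the CheA transcripts differed. CheA87a had 6.42, 5.96 and 6.04 in labelled males at 1g, against 7.37, 7.55 and 7.45 in labelled females, a log2 difference of −1.32 (SE 0.24, 95% interval −1.83 to −0.80, limma adjusted p 3e-04). CheA75a had 8.44, 8.20 and 8.51 in labelled males, against 9.35, 9.41 and 9.42 in labelled females, a log2 difference of −1.01 (SE 0.20, 95% interval −1.45 to −0.57, limma adjusted p 0.00071). Neither gene overlapped, and the arrays with male-limited transcripts were the higher ones.

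CheA29a, the gene known from male forelegs, had group means above background in the RPM labelled females only, of all groups of the series. It had 3.87, 3.78 and 3.86 in labelled males at 1g, where it was at background, against 4.15, 4.16 and 4.16 in labelled females. The mean of labelled females lay 0.07 above the background of labelled males on the log2 scale. The measured difference was −0.32 (SE 0.12) with a limma adjusted p of 0.04. The call was lost when any 1 array of the 2 groups was left out, with limma adjusted p values of 0.069 to 0.11. With each array centred on its own median the value was 0.05 with a limma adjusted p of 0.76.

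At 1g 3 of 6 members were thus called lower in labelled males, where 22.7% of all probe sets were called lower, and 5 of 6 lay lower without overlap, beside 27.1%. CheA7a had 8.02, 7.73 and 8.09 in labelled males, against 8.44, 8.37 and 8.51 in labelled females, with −0.49 (SE 0.22, limma adjusted p 0.075). CheA84a had 4.99, 4.65 and 4.93 in labelled males, against 5.18, 5.16 and 5.12 in labelled females, with −0.30 (SE 0.14, limma adjusted p 0.095). The median of the 6 differences was −0.41, beside 0.06 over all probe sets.

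At 0g, on other arrays, the members called were CheA87a, CheA75a and CheA29a. CheA87a had 6.83, 5.92, 6.29 and 5.75 in labelled males, against 7.74, 7.37 and 7.96 in labelled females, a log2 difference of −1.49 (SE 0.22, limma adjusted p 6.4e-05). CheA75a differed by −0.82 (SE 0.19, limma adjusted p 0.0023), although labelled males 0g replicate 1 at 9.18 lay above labelled females 0g replicate 2 at 9.17. CheA29a had 3.94, 3.79, 3.79 and 3.86 in labelled males, at background, against 4.40, 3.98 and 4.51 in labelled females. The mean of labelled females lay 0.22 above the background of labelled males on the log2 scale. The measured difference was −0.45 (SE 0.11) with a limma adjusted p of 0.004. That call too was lost with each array centred on its own median, where the value was −0.06 with a limma adjusted p of 0.65.

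These were 3 of 6 members called lower at 0g, where 21.4% of all probe sets were, and 3 of 6 lay lower without overlap, beside 19.8%. The 3 that overlapped were CheA75a, CheA7a and CheA84a. Without labelled males 0g replicate 1, which carries transcripts of both sexes, 5 of 6 members were called. All 6 differences were below 0 and their median was −0.43, beside 0.13 over all probe sets.

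Much of the fly differs between the 2 labels, and scaling matters. Array medians were 5.35 to 5.54 in labelled males and 5.68 to 5.85 in labelled females, and limma called 5587 probe sets higher and 4255 lower in labelled males at 1g. With each array centred on its median the counts were 11024 higher and 2947 lower, the median of all probe sets moved to 0.42, and the differences were −0.95 (limma adjusted p 0.0015) for CheA87a and −0.64 (0.0061) for CheA75a. At 0g the counts of 5627 higher and 4024 lower became 12951 and 2619, with a median of 0.52. The photoreceptor markers had mean levels of 8.24 to 8.46 in labelled males and 9.20 to 9.39 in labelled females at 1g, the 13 neuronal markers 6.60 to 6.77 and 7.28 to 7.41, and the 13 gustatory organ markers 4.36 to 4.41 and 4.73 to 4.82. The 3' minus 5' difference of GAPDH was 1.55 to 1.57 in labelled males and 1.3 to 1.42 in labelled females at 1g, and that of eIF-4a 1.17 to 1.18 and 0.82 to 1.04. The part of these in the CheA differences was not tested.

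**Figure D4:**
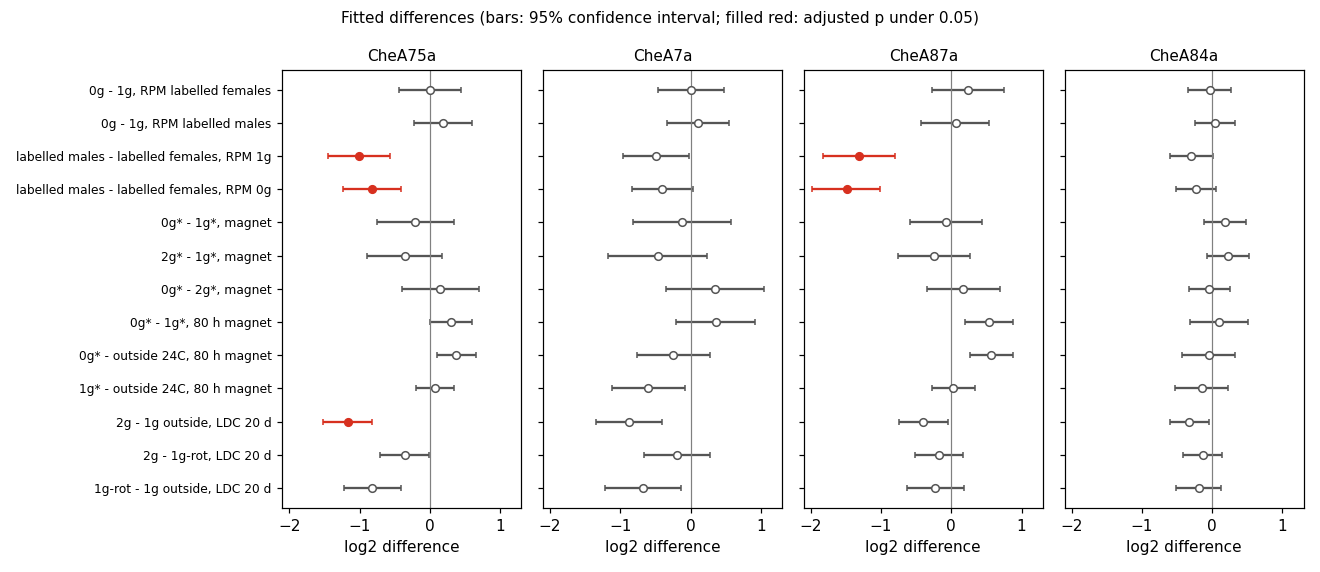
Log2 differences of CheA75a, CheA7a, CheA87a and CheA84a in the 13 tested comparisons other than the interaction, each named as its first group minus its second. Points are limma estimates, bars are 95% intervals, and filled red points have an adjusted p under 0.05. The filled points are CheA75a and CheA87a between the RPM labels, and CheA75a at 2g against 1g outside at 20 d.

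The CheB genes, the related secreted family, were measured for 6 of 12 named genes. CheB38c and CheB42b were above background in 18 of 18 groups, and CheB93a and CheB93b in 2 of 18. Between the RPM labels 4 of the 6 were called lower in labelled males at each gravity level, beside 22.7% of all probe sets at 1g and 21.4% at 0g, and 0 higher. At 1g the log2 differences were −0.66 for CheB38c (limma adjusted p 0.011) and −0.51 for CheB42b (0.038). CheB93a, with mean levels of 3.37 in labelled males and 4.13 in labelled females (0.033), and CheB93b, with 3.83 and 4.30 (0.0066), were at background in labelled males. In the 12 tested comparisons other than these 2, 0 of 6 CheB genes were called in either direction, where 0% to 2.01% of all probe sets were called.

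Among 12 measured pheromone taste receptors, Gr32a, a gustatory receptor that restrains male courtship of males, was called lower in labelled males, where it was at background, with mean levels of 4.05 against 5.05 in labelled females at 1g (limma adjusted p 0.00056) and 4.03 against 4.91 at 0g (0.0011). Gr32a is also on the list of gustatory organ markers. ppk29, a channel subunit of pheromone-sensing taste neurons, was higher in labelled males by 0.52 at 1g (limma adjusted p 0.025) and 0.46 at 0g (0.035). Ir52c was called higher at 1g at a level below background in both groups, so nothing is read from it. Of the 7 olfactory pheromone genes, Snmp1, a membrane protein of pheromone-sensing olfactory neurons, was lower in labelled males at 0g by −0.78 (limma adjusted p 0.017). None of these 19 genes was called in the tested magnet, 80 h or 20 d centrifuge comparisons, each with 2.01% of all probe sets called or fewer.

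The genes whose group means were most like those of the CheA genes were named by correlation over the 18 groups, with no test. For CheA75a they were CheB38c (Pearson r 0.945), CG7409 (0.935) and the odorant binding protein gene Obp44a (0.926). For CheA7a they were CG7409 (0.929), CG14259 (0.927) and CG18540 (0.924), and for CheA87a CG6675 (0.951), Obp19b (0.951) and CG18536 (0.948). For CheA84a they were CG18540 (0.878), CG10345 (0.875) and CG1545 (0.862). For CheA29a, which is at background in most groups, they were CG43798 (0.901), CG42266 (0.901) and Dhc62B (0.898).

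Over the 14 magnet and centrifuge groups alone, which leaves out the RPM labels, CheB38c stayed among the 3 nearest to CheA75a (0.939), together with CG18536 (0.944) and CG13833 (0.917). For CheA7a the nearest were Bace (0.929), CG14259 (0.911) and CG7409 (0.911), and for CheA84a CG10345 (0.855), CG6675 (0.851) and CG1545 (0.849). For CheA87a all 3 nearest, CG18537 (0.894), CG18540 (0.889) and CG18536 (0.874), lie close together on 2R, where CG18536 and CG18537 are direct neighbours. The groups share facilities, ages and temperatures.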

How the data were processed

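Total RNA of adult flies, taken up in Trizol, was measured on Affymetrix Drosophila 2.0 arrays. The authors deposited log2 intensities with 2 decimals. RMA and limma are named in the submitters' processing notes, with versions not given in the sources used here. Of 18952 probe sets, 183 controls were left out and 18769 were tested. Symbols came from the platform annotation (13647 probe sets with 1 symbol, 402 with several, 4720 with none). Separate group-means models for the RPM, the magnet, the 80 h runs and the LDC were computed with limma (version 3.58.1, R 4.3.3), and p values were adjusted by the Benjamini-Hochberg method over all tested probe sets, with 0.05 as the threshold. The members, lists and comparisons were chosen with earlier results of these data known. Of the comparisons, 14 were tested, and 10 that use the arrays of the choice were described. All members are named, those past the threshold have full statistics, likeness genes are the 3 with the highest correlation, and genes of the 3 chemosensory lists are named where they passed a test. CheA7a at 20 d was singled out after its values were seen. P values set each difference against the spread between arrays of the same group, pooled over the groups of a fit and moderated by limma. The number of arrays limits the precision. No 2 arrays were copies (highest correlation 0.9963, highest share of equal values 2.54%). The fitting was tested on simulated data. Quantile normalization, median centring, a replicate block, smaller fits, a filter on dim probe sets and leaving out arrays were tried.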

Additional observations from a re-analysis of the deposited data

Results flagged for a closer look

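CheA75a at 2g at 20 d had 1 array, replicate 4 at 6.97, apart from the other 3 at 6.65 to 6.69. Its gap to the nearest array was 0.875 of the range of the group. CheA87a at 2g at 5 d had replicate 3 at 5.81 apart from the other 3 at 5.40 to 5.43, with a gap of 0.927 of the range. There were 18 groups of 4 arrays looked at, counting each gene by itself, and chance alone singles out about 1 in 20. Both arrays lay above the rest of their group, on the side of the 1g groups, and no effect went one way on all arrays of one setting and the opposite way on all arrays of another among 36 sets compared.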

How the results depend on the processing

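Of the counts of called members and the median differences, 265 values under other settings stayed within the limits set for them and 18 moved. In labelled males against labelled females at 1g, 5 members were called when the other groups were dropped from the fit and 5 with a replicate block, against 3, and 2 with any array left out. At 0g the count was 3 to 5 with an array left out. At 20 d, 2g against 1g outside gave 2 calls with the replicate block, where CheA7a differed by −1.06 (limma adjusted p 0.027), and 0 to 1 with an array left out. CheA29a between the RPM labels at 1g became 0.05 with array medians centred and −0.22 (limma adjusted p 0.11) with quantile normalization, and −0.06 (0.65) with centring at 0g. The cause was not tested. The 5 d median at 2g against 1g outside was −0.48 against 1g outside and 1g-rot together, and −1.04 to −0.61 with an array left out. The median between the ages at 1g outside was −1.36 to −0.92. Against outside 14C the median at 1g* was 0.11 without the both-sex array, 0.38 with the array of unclear temperature placed at 14C, and 0.07 to 0.43 with an array left out, and at 2g* it was 0.49 and 0.02 to 0.27 under the last 2 settings.

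Replicate numbers showed no steady pairing of the samples. The deviations of same-numbered arrays correlated at −0.22 to 0.35 in the LDC, −0.01 to 0.05 in the 80 h runs, −0.60 to 0.47 in the magnet and −0.07 to 0.29 in the RPM. Arrays were matched by number, which also matched them by letter among the magnet positions and outside 24C, and within the 80 h runs. There magnet 0g* and 1g* correlated at 0.47, 0.38 and −0.07 for replicates 1, 2 and 3. Magnet 0g* and outside 24C correlated at −0.58, −0.32 and 0.17. Where letters differ at the same number, as for 2g against the 1g groups of the LDC, the values do not speak to pairing by letter. In groups of 2 arrays the deviations mirror each other. The replicate block changed no other count by over 1.5 times. Each member had 1 probe set, so no dimmer one could be tried, and an array letter block could not be fitted for 2g against the 1g groups, whose letters differ. Groups of 2 arrays and levels near background, for CheA84a, CheA29a and CheA46a, limit what can be seen.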
